A study of Mus musculus with 8 samples.

Results

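The genes described here encode neuropeptides and the receptors that read them: 19 peptide precursors, 26 receptors and the binding protein of corticotropin-releasing hormone, 46 genes of the 54446 in the deposited count table. They were chosen by name, with earlier results of these data known, each symbol being matched to its Ensembl identifier through GENCODE mouse release M21. They were measured in 4 HOM samples, homozygous for the gene-trap allele Scn2agt/gt, and in 4 WT samples from wild-type littermates, all given by the labels as strain C75BL6. The allele carries an insertion that traps the transcript of Scn2a, the gene of the voltage-gated sodium channel NaV1.2. The question is what strongly reduced NaV1.2 does to gene expression in mice that the series title calls adult. The mice were bred from heterozygous pairs, and the allele is in the germ line, not limited to 1 cell type. The labels give no exact age and no sex, and they do not say whether a sample is 1 mouse. The p-values therefore measure only the spread between these samples. The labels call the source neuron, yet markers of astrocytes and oligodendrocytes were abundant, at summed levels of 4132 to 5068 and 3407 to 4158 CPM in HOM libraries and 5127 to 5492 and 3963 to 5894 CPM in WT libraries. CPM are read counts divided by the library's TMM-adjusted size, on edgeR's usual CPM scale.

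Neuropeptides are cut from larger precursor proteins, stored in dense-core vesicles and released when neurons fire strongly. They act mostly on G-protein-coupled receptors, which slow or enhance firing and transmitter release over seconds to minutes. In the forebrain, neuropeptide Y, somatostatin, cortistatin and vasoactive intestinal peptide mark classes of GABA-releasing interneurons, whereas enkephalin, dynorphin and substance P mark the projection neurons of the striatum.

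Of the 46 genes, 45 had counts and all 45 passed the filter on low counts. Somatostatin receptor gene Sstr2 stood at 0 in every library. It lies wholly inside Slc39a11, and 1261 of the 1280 protein-coding genes nested in another gene also stood at 0, against 13.5% of those not nested, so its 0 is not read as a lack of expression. Between HOM and WT, 11 of the 45 genes differed, or 24.4%, against 5.40% of all 17395 genes tested (quasi-likelihood test of edgeR, with p adjusted by Benjamini-Hochberg over all genes and a threshold of 0.05). The receptor gene Ntsr1 and the peptide genes Cartpt and Tac2 rose in HOM, 6.67% of the 45 against 2.47% of all genes. The peptide genes Npy, Cort and Pnoc, the receptor genes Npy1r, Cckbr, Hcrtr1 and Hcrtr2, and the binding protein gene Crhbp fell, 17.8% against 2.94%. Bulk RNA cannot tell fewer cells of a type from less RNA per cell. In 13 of the 45 genes, or 28.9%, the 4 HOM values did not overlap the 4 WT values, against 14.1% of all genes. In 3 of them every HOM library stood above every WT library, against 6.63% of all genes, and in 10 every HOM library stood below, against 7.47%. The median log2 fold change was 0.01 over the 45 genes and 0.00 over all genes. The genes, like the lists used below, were chosen with earlier results of these data known. Their shares called are therefore descriptions and not an independent test.

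**Figure D1:**
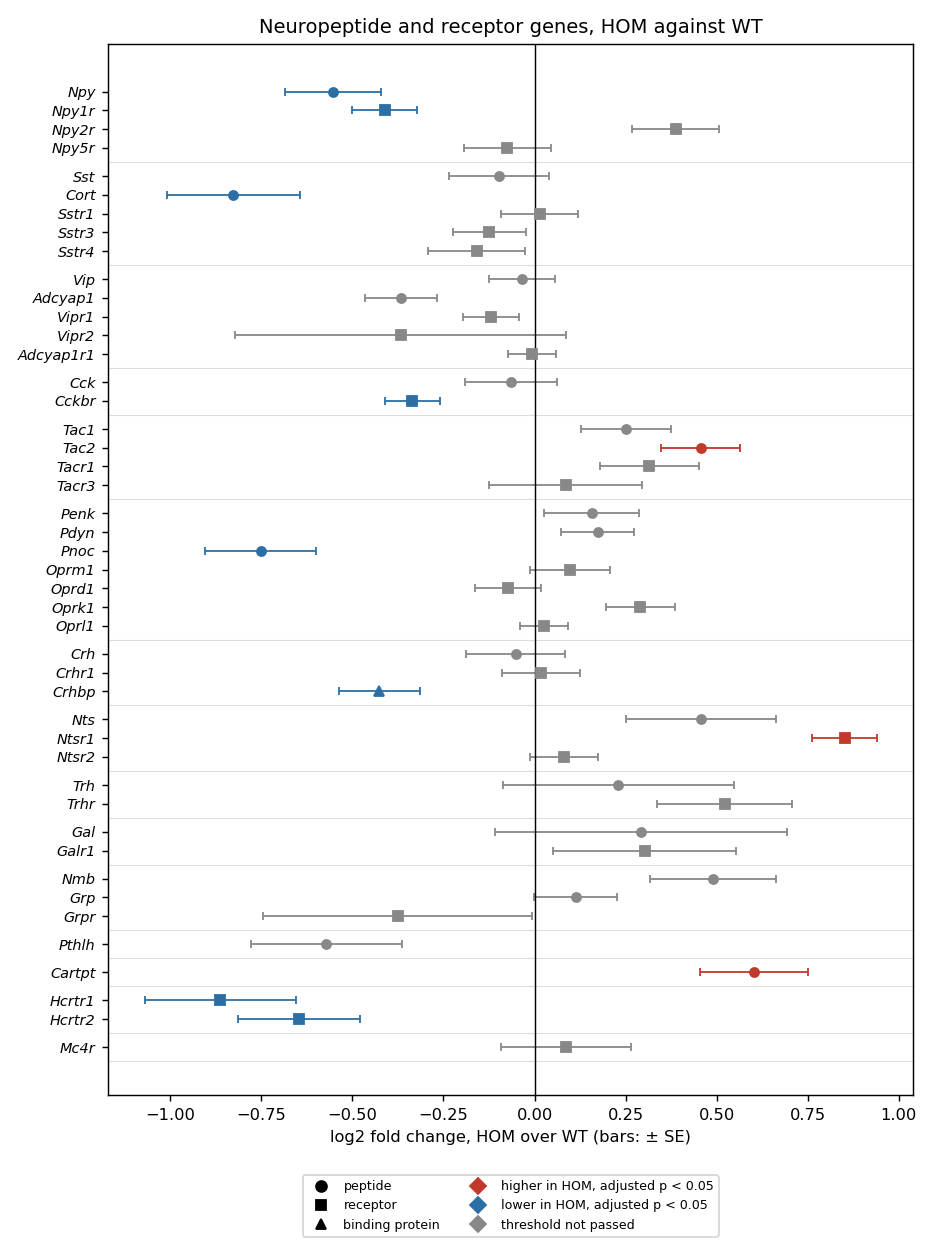
Log2 fold change of HOM over WT for the 45 measured genes, grouped by peptide family, with bars of ± SE (edgeR fit of 4 HOM and 4 WT libraries); circles are peptides, squares receptors and the triangle the binding protein. The 3 genes in red rose, the 8 in blue fell, and Ntsr1, at 0.85, stands farthest to the right.

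The trapped gene checked the labels: Scn2a lay between 112 and 147 CPM in HOM libraries and between 371 and 477 CPM in WT libraries. Total counts ran from 27993412 to 35339890 in HOM libraries and from 29053382 to 37538988 in WT libraries. Transcripts of the Y chromosome were close to absent in HOM replicate 4, with 2 counts over 4 Y-linked genes against 4452 to 5984 in the other libraries. Y-linked transcripts thus differed within HOM, and the fit held no term for sex. Choroid plexus transcripts were lower on average in HOM, with overlap between libraries. Of 16 measured markers 6 fell with edgeR (37.5%, against 2.94% of all genes) and none rose. DESeq2 called 8 lower, and limma-voom called only Ttr, which was not among the 6. All 16 were lower at an unadjusted edgeR p under 0.05 (12.5% of all genes). Only 1 of the 16 had genotypes without overlap (6.25%, against 14.1% of all genes). Summed levels were 23.5 to 251 CPM in HOM and 161 to 1818 CPM in WT, the highest in WT replicate 4. The marker Kcnj13 stood at 0. The mean log2 CPM of these markers was 0.29 ± 0.910 in HOM and 2.49 ± 1.24 in WT (SD, n = 4; two-sided exact permutation p = 0.0571). With that mean as a covariate, Ntsr1 alone of the 45 genes passed, against 0.218% of all genes. The log2 fold changes of 8 of the other 10 genes were then farther from 0, for example -0.74 (SE 0.20) for Npy and -1.16 (SE 0.25) for Cort, and those of Pnoc (-0.55, SE 0.23) and Hcrtr1 (-0.46, SE 0.29) were nearer to 0, with larger standard errors for all 10. Most calls in the table were sensitive to single libraries. The count over all genes was 212, 1187, 180 and 552 without HOM replicates 1 to 4 and 527, 957, 181 and 482 without WT replicates 1 to 4. The peptide and receptor genes called numbered 1, 8, 1 and 3 without HOM replicates 1 to 4 and 4, 7, 3 and 10 without WT replicates 1 to 4. The direction of each of the 11 genes held in all 18 alternative settings.

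In neurotensin signalling the receptor gene Ntsr1 (ENSMUSG00000027568, plus strand, chr2:180499976-180544980) rose in every HOM library. Ntsr1 encodes the high-affinity neurotensin receptor, and in mouse cortex it is widely used as a marker of layer 6 neurons that project to the thalamus. Its level was 30.2, 24.1, 26.2 and 28.2 CPM in HOM replicates 1 to 4, against 15.7, 15.7, 15.4 and 13.6 CPM in WT replicates 1 to 4. The lowest HOM library thus stood well above the highest WT library. The means were 27.2 ± 2.63 CPM in HOM and 15.1 ± 0.977 CPM in WT (SD, n = 4), a log2 fold change of 0.85 (SE 0.09, adjusted p = 0.000767 by edgeR). It was the 1 gene of the 11 that passed in all 18 alternative settings, which include the removal of each of the 8 libraries, at log2 fold changes of 0.79 to 0.91. The other receptor gene, Ntsr2, encodes a low-affinity receptor that is enriched in astrocytes. It stood at 93.7, 109, 112 and 121 CPM in HOM and 91.8, 108, 95.2 and 116 CPM in WT (log2 fold change 0.08, SE 0.09, adjusted p = 0.643 by edgeR). The log2 ratio of Ntsr1 to Ntsr2 was -2.0 ± 0.247 in HOM and -2.77 ± 0.239 in WT (SD, n = 4), with no overlap. The peptide gene Nts stood at 3.85, 4.15, 3.53 and 4.52 CPM in HOM and 2.52, 2.67, 2.15 and 4.34 CPM in WT, the WT library of highest level being replicate 4. Its log2 fold change was 0.46 (SE 0.21, adjusted p = 0.208 by edgeR), and 0.71 without WT replicate 4 (edgeR adjusted p = 0.0424).

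Promoter sequence is shown here because several peptide genes are textbook targets of CREB (Sst is the classic case), a factor that neuronal activity switches on and that binds the cAMP response element. Windows of 300 bases, from 250 before to 50 after a RefSeq transcription start (GRCm38.p6), were available for 37 of the 46 genes. The full element TGACGTCA, which reads the same on both strands, occurred in the windows of Cartpt, Sst and Sstr2, and in 1.79% of all 32851 windows. Its core TGACG, searched on both strands and contained in the full element, occurred for 19 of the 37 genes and in 20.8% of all windows. The AP-1 motif TGANTCA occurred for Npy1r and Nts and in 7.81% of all windows, and the EGR motif GCGTGGGCG for no member and in 0.612% of all windows. A gene counted if any of its windows held the motif, whereas the percentages are of single windows. The counts of genes and these percentages are therefore not like measures. Of the 100-base stretches below, those of Cartpt and Sst lie wholly, and those of Npy1r and Crhbp partly, inside the GENCODE M21 gene spans. All stretches are upstream of the RefSeq start used, with the motif in capitals. They come from chr2:180499751-180499850 (plus strand, Ntsr1), chr13:99900742-99900841 (minus strand, Cartpt), chr16:23890845-23890944 (minus strand, Sst), chr8:66697172-66697271 (plus strand, Npy1r), chr13:95444844-95444943 (minus strand, Crhbp) and chr4:149126764-149126863 (minus strand, Cort).
Ntsr1: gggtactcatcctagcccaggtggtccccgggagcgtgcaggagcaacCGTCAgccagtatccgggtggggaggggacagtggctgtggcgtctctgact
Cartpt: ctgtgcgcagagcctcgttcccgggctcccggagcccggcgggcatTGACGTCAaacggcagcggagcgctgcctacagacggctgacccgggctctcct
Sst: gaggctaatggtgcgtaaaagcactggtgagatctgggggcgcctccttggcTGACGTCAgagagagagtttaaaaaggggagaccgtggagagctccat
Npy1r: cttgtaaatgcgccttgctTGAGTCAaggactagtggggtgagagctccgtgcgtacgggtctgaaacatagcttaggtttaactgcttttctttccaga
Crhbp: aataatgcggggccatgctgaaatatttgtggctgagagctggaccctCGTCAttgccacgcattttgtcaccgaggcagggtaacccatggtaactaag
Cort: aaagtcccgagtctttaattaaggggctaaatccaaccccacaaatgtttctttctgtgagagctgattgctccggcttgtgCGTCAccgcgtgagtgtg
Genes that share a motif did not share a direction in the counts: of the genes with the full element, Cartpt rose and Sst did not pass, and of the 16 with the core alone Ntsr1 rose, Crhbp, Cort and Hcrtr2 fell and 12 did not pass. A match of letters is a description and not evidence of binding.

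Neuropeptide Y, released by a class of cortical interneurons and known to dampen excitation, was lower in HOM together with its Y1 receptor gene. Npy (ENSMUSG00000029819, plus strand, chr6:49822710-49829507) stood at 21.9, 22.8, 20.3 and 27.2 CPM in HOM replicates 1 to 4, against 29.6, 44.0, 31.7 and 30.3 CPM in WT replicates 1 to 4. The groups did not overlap, but HOM replicate 4 came near the WT range and WT replicate 2 stood far above the other WT libraries. Npy fell to 23.1 ± 2.96 CPM in HOM, against 33.9 ± 6.81 CPM in WT (SD, n = 4; log2 fold change -0.55, SE 0.13, adjusted p = 0.0348 by edgeR). Npy1r encodes the Y1 receptor, largely postsynaptic and inhibitory, and its level was 26.0, 30.0, 28.5 and 24.9 CPM in HOM and 36.7, 33.9, 41.3 and 33.5 CPM in WT. It fell to 27.3 ± 2.31 CPM in HOM, against 36.3 ± 3.60 CPM in WT (log2 fold change -0.41, SE 0.09, adjusted p = 0.0252 by edgeR). The log2 ratio of Npy1r to Npy overlapped between the groups, at 0.25 ± 0.271 in HOM and 0.12 ± 0.342 in WT. The difference of these means, 0.13, was smaller than the SD within either group. Npy2r encodes the Y2 receptor, which sits mainly on nerve endings and limits transmitter release. It stood at 11.8, 10.2, 12.7 and 11.4 CPM in HOM and 8.22, 8.08, 8.02 and 10.9 CPM in WT, where replicate 4 reached into the HOM range. Its log2 fold change was 0.39 (SE 0.12, adjusted p = 0.0759 by edgeR), and 0.51 without WT replicate 4 (edgeR adjusted p = 0.0308). The log2 ratio of Npy2r to Npy1r lay between -1.56 and -1.13 in HOM and between -2.36 and -1.62 in WT, without overlap. Npy5r, the gene of the Y5 receptor, stood at 4.37, 5.17, 4.40 and 4.24 CPM in HOM and 4.87, 4.65, 4.55 and 5.04 CPM in WT (log2 fold change -0.07, SE 0.12, adjusted p = 0.753 by edgeR). The Npy call was lost without HOM replicate 1, 2 or 3 or WT replicate 3 (edgeR adjusted p from 0.0543 to 0.118), and the Npy1r call without HOM replicate 1, 3 or 4 or WT replicate 1 or 3 (0.0524 to 0.0961).

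**Figure D2:**
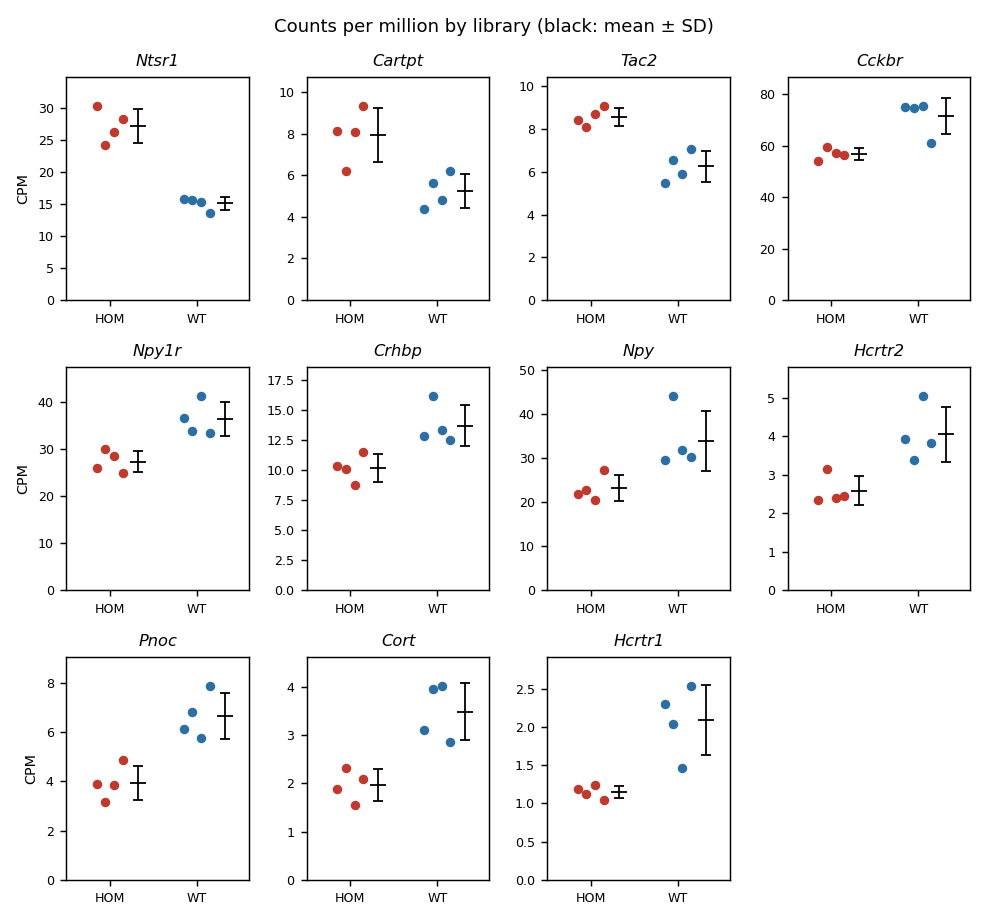
CPM in each library for the 11 genes past the threshold, ordered by fold change; red points are HOM replicates 1 to 4 and blue points WT replicates 1 to 4, with the black bar giving mean ± SD (n = 4). In every panel the HOM points lie wholly above or wholly below the WT points, with the widest separation for Ntsr1.

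Somatostatin and cortistatin are related peptides that act on the same receptors and are made by interneurons. Cort (ENSMUSG00000028971, minus strand, chr4:149125034-149126763) stood at 1.88, 2.32, 1.55 and 2.09 CPM in HOM replicates 1 to 4, against 3.11, 3.96, 4.01 and 2.85 CPM in WT replicates 1 to 4. These levels rest on 50 to 74 reads in HOM libraries and 90 to 120 reads in WT libraries. All HOM libraries lay below all WT libraries, and HOM held 56.3% of the WT mean (log2 fold change -0.83, SE 0.18, adjusted p = 0.0266 by edgeR). The call was lost without HOM replicate 1, 3 or 4 or WT replicate 2 or 3 (edgeR adjusted p from 0.0501 to 0.0913). Sst, by contrast, stood at 126, 126, 138 and 172 CPM in HOM and 119, 193, 141 and 149 CPM in WT. The groups overlapped broadly, at 141 ± 21.6 CPM in HOM and 151 ± 31.1 CPM in WT (SD, n = 4; log2 fold change -0.10, SE 0.14, adjusted p = 0.713 by edgeR). The log2 ratio of Cort to Sst was -6.17 ± 0.320 in HOM and -5.43 ± 0.275 in WT, with no overlap. Of the receptor genes, Sstr1 stood at 18.8, 21, 25.9 and 21.1 CPM in HOM and 22.8, 23.6, 19.3 and 20.1 CPM in WT (log2 fold change 0.01, SE 0.11, adjusted p = 0.952 by edgeR). Sstr3, whose receptor is found on neuronal cilia, stood at 25.8, 20.3, 22.9 and 25.3 CPM in HOM and 24.5, 29.9, 25.3 and 23.2 CPM in WT (-0.12, SE 0.10, adjusted p = 0.490 by edgeR). Sstr4 stood at 10.3, 14.1, 12.9 and 8.90 CPM in HOM and 13.5, 12.9, 13.5 and 11.4 CPM in WT (-0.16, SE 0.13, adjusted p = 0.509 by edgeR). For these 3 receptors the ranges of the genotypes overlapped.

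Among the opioid-related genes the nociceptin precursor fell, and none of the other 6 passed with edgeR or limma-voom, while DESeq2 also called Oprk1 higher (adjusted p = 0.0497). Pnoc (ENSMUSG00000045731, minus strand, chr14:65400673-65425472) stood at 3.87, 3.16, 3.84 and 4.86 CPM in HOM replicates 1 to 4, against 6.11, 6.82, 5.77 and 7.87 CPM in WT replicates 1 to 4. No HOM library reached the lowest WT library, and the means were 3.93 ± 0.698 CPM in HOM and 6.64 ± 0.927 CPM in WT (SD, n = 4; log2 fold change -0.75, SE 0.15, adjusted p = 0.0198 by edgeR). The call was lost without HOM replicate 1 or 3 (edgeR adjusted p = 0.0696 and 0.0746 at the lowest and highest). Oprl1, the gene of the nociceptin receptor, stood at 49.9, 43.2, 46.4 and 46.6 CPM in HOM and 44.0, 45, 47.9 and 45.8 CPM in WT (0.03, SE 0.07, adjusted p = 0.851 by edgeR). The log2 ratio of Pnoc to Oprl1 was -3.58 ± 0.223 in HOM and -2.79 ± 0.216 in WT, with no overlap. The enkephalin precursor gene Penk stood at 146, 154, 113 and 184 CPM in HOM and 117, 141, 123 and 154 CPM in WT (0.16, SE 0.13, adjusted p = 0.502 by edgeR). The dynorphin precursor gene Pdyn stood at 33.9, 28.6, 27.5 and 31.9 CPM in HOM and 25, 31.6, 24.2 and 27.4 CPM in WT (0.17, SE 0.10, adjusted p = 0.320 by edgeR). For both precursors the groups overlapped.

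The opioid receptor genes also overlapped between the genotypes. Oprk1, the gene of the kappa receptor on which dynorphin acts, stood at 17.3, 19.0, 16.7 and 15.4 CPM in HOM and 15.8, 12.8, 14.1 and 13.3 CPM in WT (log2 fold change 0.29, SE 0.09, adjusted p = 0.0919 by edgeR). Only HOM replicate 4 fell within the WT range. Oprm1, the mu receptor gene, stood at 16.1, 20.03, 17.6 and 15.1 CPM in HOM and 18.8, 14.9, 14.7 and 15.7 CPM in WT (0.10, SE 0.11, adjusted p = 0.638 by edgeR), and 0.557 of its span is shared with other annotated genes. Oprd1, the delta receptor gene on which enkephalin acts, stood at 28.5, 29.7, 24.8 and 26.0 CPM in HOM and 30.8, 30.7, 28.1 and 24.9 CPM in WT (-0.07, SE 0.09, adjusted p = 0.669 by edgeR).

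Of the tachykinins, Tac2, the mouse gene of neurokinin B, rose in HOM. Tac2 (ENSMUSG00000025400, plus strand, chr10:127724478-127731768) stood at 8.44, 8.08, 8.68 and 9.07 CPM in HOM replicates 1 to 4, against 5.46, 6.56, 5.91 and 7.07 CPM in WT replicates 1 to 4. Every HOM library stood above every WT library, and the means were 8.57 ± 0.414 CPM in HOM and 6.25 ± 0.709 CPM in WT (SD, n = 4; log2 fold change 0.46, SE 0.11, adjusted p = 0.0345 by edgeR). The call was lost without HOM replicate 1, 3 or 4 or WT replicate 1 or 3 (edgeR adjusted p from 0.0655 to 0.102). Tacr3, the gene of the receptor that prefers neurokinin B, stood at 3.24, 3.51, 2.14 and 3.02 CPM in HOM and 2.22, 2.77, 2.40 and 3.84 CPM in WT (0.09, SE 0.21, adjusted p = 0.846 by edgeR). Tac1, the precursor gene of substance P, stood at 24.8, 26.6, 18.5 and 26.9 CPM in HOM and 18, 20.9, 18.8 and 23.6 CPM in WT (0.25, SE 0.12, adjusted p = 0.248 by edgeR). Tacr1, the substance P receptor gene, stood at 8.00, 9.70, 6.14 and 8.19 CPM in HOM and 6.22, 5.90, 6.63 and 6.98 CPM in WT (0.31, SE 0.14, adjusted p = 0.189 by edgeR). For the peptides, the log2 ratio of Tac2 to Tac1 overlapped between the genotypes, at -1.48 ± 0.270 in HOM and -1.70 ± 0.0354 in WT. HOM replicate 3 was the lowest HOM library for all of Tac1, Tacr1, Tacr3, Penk and Pdyn. This library was also lowest in HOM for other members, among them the interneuron peptide genes Npy, Vip and Cort, and Crh, Crhbp and Nts. It was also the lowest HOM library for the summed level of 16 markers of striatal projection neurons, at 1277 CPM against 1474 to 1724 CPM in the other HOM libraries and 1417 to 1524 CPM in WT. None of those 16 markers passed the threshold with edgeR, DESeq2 or limma-voom, and 1 had an unadjusted p under 0.05. Their part in the peptide values was not tested.

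Cholecystokinin is among the most abundant cortical peptides, and in the brain it acts chiefly through the receptor encoded by Cckbr. Cckbr (ENSMUSG00000030898, plus strand, chr7:105425731-105470898) stood at 53.8, 59.4, 56.9 and 56.4 CPM in HOM replicates 1 to 4, against 75.0, 74.4, 75.3 and 61.1 CPM in WT replicates 1 to 4. WT replicate 4 lay near the HOM libraries, without overlap, and the other WT libraries lay close together. Cckbr fell to 56.6 ± 2.29 CPM in HOM, against 71.4 ± 6.87 CPM in WT (SD, n = 4; log2 fold change -0.33, SE 0.08, adjusted p = 0.0307 by edgeR). The call was lost without HOM replicate 1, 3 or 4 or WT replicate 1, 2 or 3 (edgeR adjusted p from 0.0511 to 0.115). The peptide gene Cck stood at 236, 202, 236 and 287 CPM in HOM and 209, 313, 249 and 234 CPM in WT, with broad overlap (-0.06, SE 0.13, adjusted p = 0.800 by edgeR). In corticotropin-releasing hormone signalling, Crhbp encodes a secreted protein that binds the hormone and limits its action. Crhbp (ENSMUSG00000021680, minus strand, chr13:95431371-95444924) stood at 10.3, 10.1, 8.74 and 11.5 CPM in HOM and 12.8, 16.2, 13.4 and 12.5 CPM in WT. It fell to 10.2 ± 1.14 CPM in HOM, against 13.7 ± 1.68 CPM in WT (log2 fold change -0.43, SE 0.11, adjusted p = 0.0468 by edgeR). This call had the highest adjusted p of the 11 and was lost without any 1 of the 8 libraries (edgeR adjusted p from 0.0516 to 0.148). Crh stood at 4.15, 3.90, 3.50 and 4.15 CPM in HOM and 4.08, 4.71, 3.98 and 3.52 CPM in WT (-0.05, SE 0.14, adjusted p = 0.857 by edgeR). Its receptor gene Crhr1 stood at 36.7, 32.7, 35.5 and 32.5 CPM in HOM and 40.6, 36.1, 30.7 and 28.2 CPM in WT (0.02, SE 0.11, adjusted p = 0.940 by edgeR). The log2 ratio of Crhbp to Crh was 1.37 ± 0.0726 in HOM and 1.75 ± 0.0747 in WT, with no overlap. Of the 9 ratios computed, 5 did not overlap and 4 did. These ratios were chosen after the data were seen, and each holds a gene past the threshold. They are descriptions and add no support separate from those calls. The ratio of Cckbr to Cck was -2.07 ± 0.242 in HOM and -1.80 ± 0.260 in WT, with overlap.

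Both orexin receptor genes fell, although each was expressed at a few CPM. Orexins are wake-promoting peptides made by a small group of hypothalamic neurons whose axons reach most of the brain. Hcrtr1 (ENSMUSG00000028778, minus strand, chr4:130130217-130139359) stood at 1.19, 1.12, 1.24 and 1.04 CPM in HOM replicates 1 to 4, against 2.30, 2.04, 1.47 and 2.54 CPM in WT replicates 1 to 4. The HOM libraries lay close together and below the lowest WT library, WT replicate 3 (log2 fold change -0.86, SE 0.21, adjusted p = 0.0359 by edgeR). These levels rest on 32 to 43 reads in HOM and 41 to 85 reads in WT. Hcrtr2 (ENSMUSG00000032360, minus strand, chr9:76225880-76323856) stood at 2.35, 3.16, 2.39 and 2.46 CPM in HOM and 3.92, 3.40, 5.05 and 3.84 CPM in WT. The groups did not overlap, HOM replicate 2 coming near WT replicate 2 (log2 fold change -0.65, SE 0.17, adjusted p = 0.0457 by edgeR). The Hcrtr1 call was lost in 7 of 8 removals, all but that of WT replicate 3 (edgeR adjusted p from 0.0524 to 0.102), and the Hcrtr2 call without HOM replicate 1, 3 or 4 or WT replicate 1, 3 or 4 (0.0743 to 0.142). Between the receptors, the log2 ratio of Hcrtr1 to Hcrtr2 overlapped, at -1.16 ± 0.254 in HOM and -0.97 ± 0.546 in WT. The orexin precursor gene Hcrt did not pass the filter, at 0.0620 to 0.332 CPM in HOM and 0 to 0.287 CPM in WT. Cartpt encodes the precursor of CART, a peptide linked to feeding and reward whose receptor is not settled. Cartpt (ENSMUSG00000021647, minus strand, chr13:99898489-99901091) stood at 8.11, 6.22, 8.09 and 9.32 CPM in HOM and 4.38, 5.60, 4.80 and 6.18 CPM in WT. HOM replicate 2 was barely above WT replicate 4, and the means were 7.93 ± 1.28 CPM in HOM and 5.24 ± 0.808 CPM in WT (SD, n = 4; log2 fold change 0.60, SE 0.15, adjusted p = 0.0387 by edgeR). The Cartpt call was lost without HOM replicate 1, 3 or 4 or WT replicate 1 or 3 (edgeR adjusted p from 0.0795 to 0.11).

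**Figure D3:**
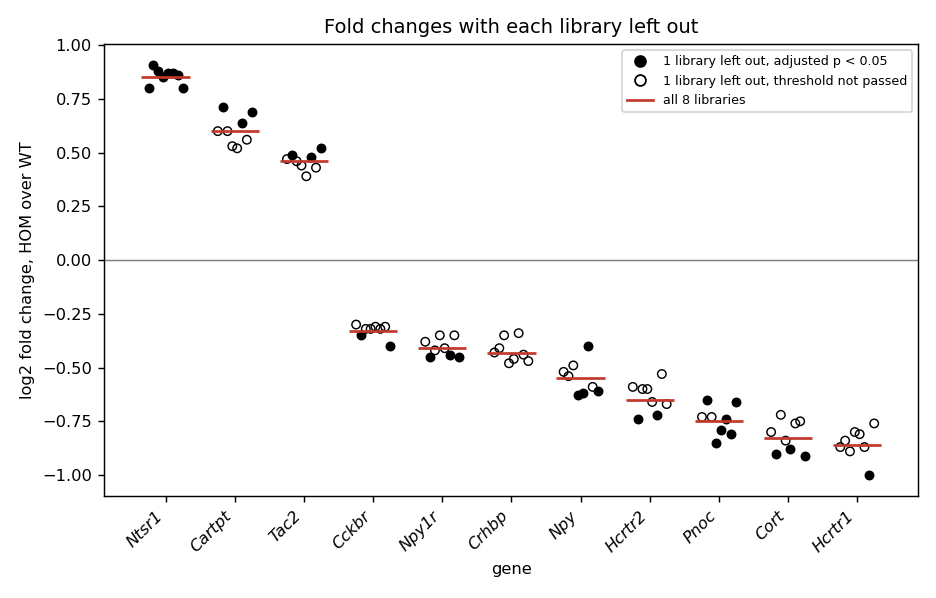
Log2 fold change of HOM over WT for the 11 genes with each of the 8 libraries left out in turn (points; filled where adjusted p stayed under 0.05) and with all 8 libraries (red line). No point crosses 0, and Ntsr1 is filled in all 8 removals whereas Crhbp is open in all 8.

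The remaining families held no gene past the threshold in edgeR or limma-voom. DESeq2 called Adcyap1 and Trhr, and Adcyap1, Trhr, Nmb and Pthlh had an unadjusted edgeR p under 0.05. Adcyap1, the precursor gene of PACAP, came closest, at 9.74, 7.91, 8.06 and 8.13 CPM in HOM and 10.3, 10.7, 10.8 and 11.8 CPM in WT (log2 fold change -0.37, SE 0.10, adjusted p = 0.0519 by edgeR), without overlap. Its receptor gene Adcyap1r1 averaged 215 ± 14.5 CPM in HOM and 216 ± 8.87 CPM in WT (SD, n = 4; -0.01, SE 0.07). Vip, a peptide of interneurons, averaged 31.0 ± 2.96 CPM in HOM and 31.7 ± 2.89 CPM in WT (-0.03, SE 0.09), and its receptor gene Vipr1 averaged 37.3 and 40.6 CPM (-0.12, SE 0.08). Vipr2 averaged 1.19 CPM in HOM and 1.54 CPM in WT (-0.37, SE 0.45), with 0.524 of its span shared with another annotated gene. Trhr, the receptor gene of thyrotropin-releasing hormone, averaged 10.9 ± 1.69 CPM in HOM and 7.59 ± 2.04 CPM in WT (0.52, SE 0.19, adjusted p = 0.118 by edgeR). Its ligand gene Trh spread from 3.16 to 10.3 CPM in HOM and from 3.55 to 8.56 CPM in WT (0.23, SE 0.32). Of the bombesin-like peptides, Nmb averaged 3.71 CPM in HOM and 2.64 CPM in WT (0.49, SE 0.17, adjusted p = 0.114 by edgeR). Grp averaged 8.76 CPM in HOM and 8.12 CPM in WT (0.11, SE 0.11), and GENCODE M21 places it wholly within another annotated gene. Pthlh, the gene of parathyroid hormone-related protein, averaged 1.68 ± 0.401 CPM in HOM and 2.51 ± 0.392 CPM in WT without overlap (-0.57, SE 0.21, adjusted p = 0.124 by edgeR). The melanocortin receptor gene Mc4r averaged 2.68 CPM in HOM and 2.52 CPM in WT (0.09, SE 0.18). Gal (0.524 and 0.426 CPM in HOM and WT), its receptor gene Galr1 (0.976 and 0.788 CPM) and the bombesin receptor gene Grpr (0.613 and 0.794 CPM) averaged under 1 CPM in each genotype. At that depth their log2 fold changes carried SEs of 0.40, 0.25 and 0.37.

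Peptide precursors differed widely in abundance. Per kilobase of annotated exon, Sst led with 195 CPM in HOM and 209 CPM in WT, followed by Cck with 184 and 193 CPM, Penk with 91.3 and 81.9 CPM and Npy with 40.7 and 59.9 CPM. Whether reads in introns were counted is not stated, so these levels per length are approximate. Among the precursors past the threshold, Cort stood at 2.90 and 5.14 and Pnoc at 1.82 and 3.08 CPM per kilobase in HOM and WT. The 19 peptide genes together summed to 685, 641, 640.4 and 831 CPM in HOM replicates 1 to 4 and 605, 836, 677 and 714 CPM in WT replicates 1 to 4, with overlap. HOM replicate 4 and WT replicate 2 were thus the highest libraries of their groups, and each was also the highest of its group for Sst, Cck and Npy.

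Of 19 listed interneuron markers 17 were measured, and Dlx1 and Dlx6 stood at 0. With edgeR, Gad1 and Reln fell, Nos1 rose and 14 did not pass, or 17.6% called against 5.40% of all genes. The median log2 fold change was -0.09, with 6 positive and 11 negative. Gad1, which encodes the main GABA-synthesising enzyme, stood at 251, 257, 223 and 221 CPM in HOM and 313, 336, 335 and 344 CPM in WT (log2 fold change -0.48, SE 0.07, adjusted p = 0.00457 by edgeR). The summed marker level was 1267 to 1419 CPM in HOM and 1518 to 1636 CPM in WT, without overlap, and such a sum is weighted to abundant genes such as Gad1. The unweighted mean log2 CPM was 4.93 ± 0.0363 in HOM and 4.98 ± 0.0743 in WT (SD, n = 4; two-sided exact permutation p = 0.257). The lists of other cell types gave the following edgeR values. The 11 endothelial and mural markers all had negative fold changes, with 2 called lower (18.2%, against 2.94% of all genes). At an unadjusted edgeR p under 0.05, 8 were lower (72.7%, against 12.5%), and DESeq2 called 5 lower (45.5%, against 6.06%). Their sums were 244 to 288 CPM in HOM and 302 to 367 CPM in WT. Fold changes were negative for 10 of 11 astrocyte markers, with 1 called lower (9.09%, against 2.94% of all genes) and sums that did not overlap. They were also negative for 11 of 11 oligodendrocyte markers, with none called by edgeR or limma-voom. Of these 11, DESeq2 called 3 lower (27.3%, against 6.06%), and 7 were lower at an unadjusted edgeR p under 0.05 (63.6%, against 12.5%). Of 16 markers of cortical projection neurons 4 fell (25%, against 2.94% of all genes) and 12 did not pass. The 9 microglial markers all had positive fold changes, with 1 called higher (11.1%, against 2.47% of all genes). So did all 11 hypothalamic markers that passed the filter, with a median log2 fold change of 0.34 and none called. Fold changes were negative for 11 of 12 thalamic and habenular markers that passed the filter, with 2 called lower (16.7%, against 2.94% of all genes). Of 11 hippocampal markers 1 rose, 1 fell and 9 did not pass (18.2% called, against 5.40% of all genes). The part of these markers in the peptide and receptor values was not tested. Nos1 (log2 fold change 0.42) lost its call without HOM replicate 1 or 3 or WT replicate 3 (edgeR adjusted p from 0.0605 to 0.0660). With the choroid plexus covariate none of Gad1, Reln and Nos1 passed (edgeR adjusted p = 0.132, 0.188 and 0.0561).

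The machinery that makes and sorts peptides was measured in 31 genes, of which 3 fell with edgeR (9.68%, against 2.94% of all genes) while 28 did not pass. Their median log2 fold change was -0.10. None rose with edgeR, limma-voom or DESeq2, and at an unadjusted edgeR p under 0.05, 0 were higher and 11 lower (35.5%, against 12.5% of all genes). DESeq2 called 7 lower (22.6%, against 6.06% of all genes). Pcsk1, a convertase that cuts precursors in secretory vesicles, stood at 41.5, 38.4, 34.6 and 25.7 CPM in HOM replicates 1 to 4, against 74.7, 55.4, 80.7 and 56.2 CPM in WT replicates 1 to 4. It fell to 35.1 ± 6.85 CPM in HOM, against 66.7 ± 12.9 CPM in WT (SD, n = 4; log2 fold change -0.93, SE 0.15, adjusted p = 0.00957 by edgeR), and passed in all 8 removals of a library but not with the choroid plexus covariate (-0.98, adjusted p = 0.118). Pam, the enzyme that amidates peptide ends, averaged 198 ± 2.39 CPM in HOM and 249 ± 13.4 CPM in WT (-0.33, SE 0.06, adjusted p = 0.0129 by edgeR). Its call was lost without HOM replicate 3 or WT replicate 3 (0.0547 and 0.0559 at the lowest and highest). Sort1, a sorting receptor that also binds neurotensin, averaged 432 ± 31.6 CPM in HOM and 598 ± 30.9 CPM in WT (-0.47, SE 0.07, adjusted p = 0.00533 by edgeR) and likewise passed in all 8 removals but not with that covariate (-0.52, adjusted p = 0.0872). Pam also lost its call with the covariate (-0.37, adjusted p = 0.141). Of the genes that did not pass, the convertase gene Pcsk2 averaged 356 ± 21.5 CPM in HOM and 430 ± 34.8 CPM in WT (-0.27, SE 0.07, adjusted p = 0.0504 by edgeR), and Cpe, the carboxypeptidase gene, averaged 1887 ± 109 CPM in HOM and 1901 ± 151 CPM in WT (-0.01, SE 0.07). These 31 genes summed to 6194 to 6619 CPM in HOM and 6963 to 7337 CPM in WT, without overlap.

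**Figure D4:**
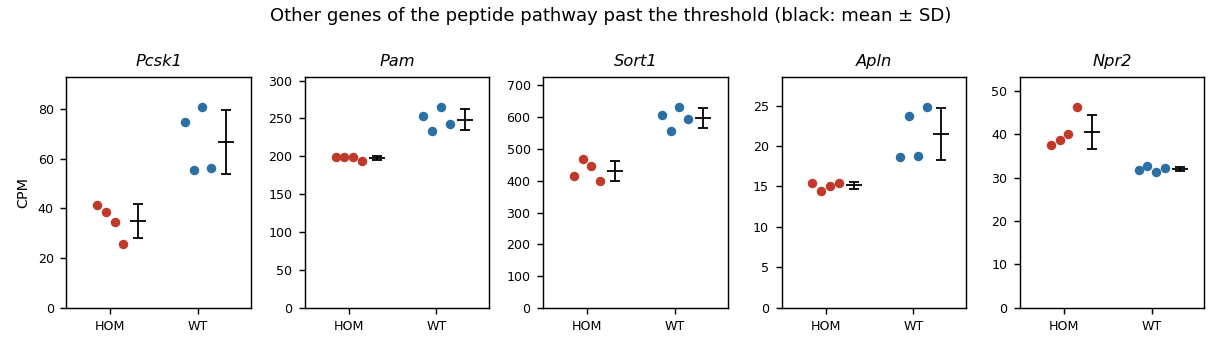
CPM in each library for the 5 other genes of the peptide pathway past the threshold; red points are HOM replicates 1 to 4, blue points WT replicates 1 to 4, and the black bar is mean ± SD (n = 4). Pcsk1, Pam, Sort1 and Apln are lower in all HOM libraries and Npr2 is higher.

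The further genes of the pathway held 2 calls with edgeR and with limma-voom, and 7 with DESeq2. Of 38 further peptide genes 15 passed the filter, and Apln, the gene of apelin, fell, at 15.5, 14.5, 15.1 and 15.4 CPM in HOM and 18.6, 23.7, 18.8 and 24.8 CPM in WT (log2 fold change -0.51, SE 0.10, adjusted p = 0.0205 by edgeR). The other 14 did not pass with edgeR, the median of the 15 being 0.08, and DESeq2 also called Gnrh1 higher. Of 46 further receptor genes 34 passed the filter, and Npr2, the gene of the guanylyl cyclase that reads C-type natriuretic peptide, rose. It stood at 37.4, 38.6, 40.0 and 46.2 CPM in HOM and 31.8, 32.6, 31.4 and 32.2 CPM in WT (0.34, SE 0.08, adjusted p = 0.0285 by edgeR), and the median of the 34 was 0.01. DESeq2 also called Oxtr, Pth1r and Rxfp3 higher and Npr3 lower. The Apln call was lost without HOM replicate 1 or 3 (edgeR adjusted p from 0.0696 to 0.0783) and the Npr2 call without HOM replicate 3 or WT replicate 1, 3 or 4 (0.0597 to 0.0883). The edgeR shares called in these lists, 6.67% and 2.94%, lay near the 5.40% of all genes, and the DESeq2 shares were 13.3% and 14.7% against 10.8%.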

How the data were processed

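Total RNA from 4 HOM and 4 WT mouse samples was made into stranded, paired-end TruSeq libraries, per the labels' protocols. The deposited table holds raw counts, whole numbers for each Ensembl identifier. The tools named are FastQC 0.11.3, then STAR and featureCounts with edgeR, and the build is GRCm38, per the submitters' processing notes. Other versions, the annotation release and how strand was handled: not given in the sources used here. Names and positions came from GENCODE M21, which lacked 37 identifiers holding 0.0143% of the counts.

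The whole table was fitted with edgeR 4.0.16 in R 4.3.3 (quasi-likelihood test, TMM scaling, filterByExpr with at least 10 counts in 4 libraries and 15 in all, adjusted p under 0.05). Standard errors are the absolute log2 fold change divided by the square root of F. The test was tried on simulated counts. The members and lists were chosen with earlier results of these data known, and the ratios of paired genes after the data were seen. The text gives every library's value for members past the threshold and for members of their families, means or ranges for the other members, and the genes past the threshold from 3 lists of other peptide genes, receptors and processing genes. Libraries of a group differed beyond sampling noise, with a lowest chi-square per degree of freedom of 7.12. Alternatives were DESeq2 1.42.0, limma-voom (limma 3.58.1), RLE and upper-quartile scaling, other filters, a replicate block, marker covariates and left-out libraries.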

Additional observations from a re-analysis of the deposited data

Results flagged for a closer look

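In 7 of the 90 sets of 4 libraries checked (45 genes in each genotype), 1 library stood apart from the other 3 by more than 0.829 of the set's range. About 1 set in 20 is expected to do so by chance. WT replicate 4 accounted for 4 of them. There Vipr2 stood at 3.30 CPM against 0.784 to 1.07 CPM in the other WT libraries, and Npy2r at 10.9 CPM against 8.02 to 8.22 CPM. Cckbr stood at 61.1 CPM there against 74.4 to 75.3 CPM, and Ntsr1 at 13.6 CPM against 15.4 to 15.7 CPM. That library also had the highest summed level of 14 thalamic and habenular markers, at 467 CPM against 340, 319 and 331 CPM in the other WT libraries and 340 to 421 CPM in HOM, and the highest choroid plexus level. The part of the thalamic and habenular markers was not tested, and choroid plexus markers entered only as a covariate of the genotype fit. Npy stood at 44.0 CPM in WT replicate 2 against 29.6 to 31.7 CPM in the other WT libraries. Adcyap1 stood at 9.74 CPM in HOM replicate 1 against 7.91 to 8.13 CPM in the other HOM libraries, and Hcrtr2 at 3.16 CPM in HOM replicate 2 against 2.35 to 2.46 CPM.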

How the results depend on the processing

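Of the 11 genes past the threshold, all 11 passed with RLE scaling, without a filter and with DESeq2, 10 with limma-voom or a filter of 1 CPM and 9 with upper-quartile scaling. DESeq2 called 15 members (6 higher) and 1873 genes in all. With the replicate block 2 members passed (1 higher, 1 lower; 364 genes), Ntsr1 and Pnoc. With the striatal marker covariate 3 passed (1 higher, 2 lower; 507 genes) and with the choroid plexus covariate 1 higher and 0 lower (38 genes), where edgeR gave 7 lower members at an unadjusted p under 0.05. With HOM replicate 4 and WT replicate 4 both left out 6 passed (2 higher, 4 lower; 335 genes). With 1 library left out, 1 to 10 members passed (1 to 5 higher, 0 to 5 lower; 180 to 1187 genes); the 0 came without HOM replicate 1 or 3, where edgeR gave 10 and 9 lower members at an unadjusted p under 0.05. Upper-quartile scaling split the calls over all genes into 539 higher and 355 lower, against 429 and 511. In every setting the share of members called was above that of all genes, the narrowest gaps being 2.22% against 1.21% without HOM replicate 1 and 2.22% against 1.02% without HOM replicate 3. The cause of these losses was not tested. Since the members were chosen with earlier results of these data known, shares above that of all genes are only descriptive. Deviations of same-numbered HOM and WT libraries correlated at 0.05, -0.20, -0.01 and 0.03, and those of differently numbered libraries at -0.215 to 0.248. Replicate numbers thus showed no sign of pairing. Such correlations cannot tell whether samples shared a litter. Genes under 1 CPM, such as Gal and Grpr, are limited by depth.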
